A study of Rattus norvegicus with 24 samples.

Results

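The 10 genes described here are Mt-co1, Mt-co2, Mt-co3, Mt-atp6, Mt-atp8, Mt-cyb, Mt-nd1, Mt-nd4, Mt-nd5 and Mt-nd6, protein-coding genes carried by the rat mitochondrial genome. They were taken by name, and all 10 are among the 13 mitochondrially encoded genes in a gene-level count table of 21767 genes. The table comes from polyA RNA of cultured neonatal rat ventricular myocytes (heart muscle cells isolated from newborn Sprague-Dawley rats), 24 libraries in 8 groups of 3. Cells were transfected with synthetic miRNA mimics at 5 nM each, namely that of miR-222-3p, that of miR-455-3p, the pair of them together, or a negative control. Treatment with doxorubicin, an anthracycline chemotherapy drug known for heart toxicity, or with vehicle began 48 h after transfection and lasted 24 h. Every group was therefore transfected, and the untreated groups carried a mimic too. The sample descriptions give the doxorubicin dose as 4 uM and the series text gives 4 mM, a difference that was not settled here. Cells given both mimics received 5 nM of each, and no source says whether wells with a single mimic had extra control mimic added. The labels do not say which animals or culture days lie behind the replicates, so the p-values below speak only of the scatter among these samples, which may be technical. The design asks how doxorubicin alters these cells and whether the mimics, alone or together, change that.

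As background, the mitochondrial genome is copied into RNA as long transcripts that each cover many genes, one from each strand. Promoters near the control region start the heavy-strand transcript, which runs from the ribosomal RNAs through Mt-nd1, Mt-co1, Mt-co2, the ATP synthase genes, Mt-co3, Mt-nd4 and Mt-nd5 to Mt-cyb at its far end, and transfer RNAs between the genes are cut out to release the messages. Mt-nd6 lies on the opposite strand and comes from the light-strand transcript. The proteins are core subunits of the respiratory chain and of ATP synthase, and heart muscle, rich in mitochondria, has abundant messages of this kind. Doxorubicin intercalates into DNA, poisons topoisomerase and is known to accumulate in mitochondria.

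The mature sequences of the mimicked miRNAs are shown because the study's factors are these molecules, with the seed (bases 2 to 8, which pair with target messages) in capitals, from RefSeq on build GRCr8. They have different seeds. The mature sequence of the first lies at chrX:6022682-6022702 on the plus strand and that of the second at chr5:81704881-81704902 on the plus strand.
rno-miR-222-3p: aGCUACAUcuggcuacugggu
rno-miR-455-3p: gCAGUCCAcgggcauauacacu

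Several properties of the libraries bear on these genes. Library totals ran from 17311949 to 25750309 counts, and the fewest counts for any of the 10 genes in any library was 486, for Mt-atp8. The exact (Clopper-Pearson) 95% interval of a single library's share was at most 9% of that share to either side for Mt-atp8 and at most 1.93% for the other 9, which covers counting error only. The 4 libraries with the fewest genes at 10 counts or more came from the control mimic (11469 genes in treated replicate 1, 12430 in untreated replicate 1) and from both mimics (12289 in treated replicate 2, 12467 in untreated replicate 3). Some replicates were far closer to each other than the rest, with a chi-square per degree of freedom of 5.95 between replicates 1 and 2 of miR-222 without doxorubicin, 7.18 between replicates 1 and 3 of miR-455 without doxorubicin and 8.06 between replicates 1 and 2 of both mimics without doxorubicin. The 3 libraries of miR-455 with doxorubicin gave 8.12 to 10.2, and all other pairs within a group gave 54.4 or more. All of these exceed sampling noise, so no library was taken as a copy of another and each was kept as a sample of its own. This does not show that the close libraries came from separate cultures, which the labels do not say. Results with the 3 close untreated pairs summed are therefore also given. The 3 libraries of miR-455 with doxorubicin were not summed there and still count as 3 samples. The 7 heart muscle markers, such as Tnnt2 (cardiac troponin T), summed to 16362 to 51415 CPM (counts scaled to a common library size). Fibroblast markers (5 in the table) summed to 12365 to 42657 CPM, so the cultures held RNA of both kinds. Most of that sum was Col1a1 (median 18681 CPM) and Col3a1 (5527), with Dcn, Lum and Pdgfra at medians of 149, 56.5 and 45.5. Macrophage and leukocyte markers summed to at most 4.32 CPM, with Adgre1 and Cd163 at a median of 0, endothelial markers to at most 83.9 CPM, smooth muscle and pericyte markers to 893 to 4191 CPM and red blood cell markers to at most 0.262 CPM. In such bulk RNA, fewer cells of a type and less RNA per cell cannot be told apart, nor can fewer mitochondrial genomes and fewer transcripts from each.

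The 10 genes together took between 5.35% and 33.7% of a library's counts, a 6.31-fold range. With the control mimic their summed share was 18.3%, 12.03% and 8.48% without doxorubicin and 33.7%, 7.997% and 14.4% with it. With miR-222 it was 8.47%, 8.60% and 7.77% without the drug and 7.89%, 11.7% and 9.35% with it. These 2 mimic conditions overlapped between treated and untreated libraries. With miR-455 the share was 5.50%, 8.80% and 5.35% without doxorubicin and 13.1%, 13.7% and 12.2% with it, and here every treated library lay above every untreated one. With both mimics it was 7.56%, 6.35% and 21.6% without doxorubicin and 11.7%, 19.8% and 17.9% with it. The spread within a group was largest for the groups holding the libraries with few genes. Those 4 libraries also had the highest summed shares of all (33.7%, 21.6%, 19.8% and 18.3%). Results without them are therefore selected on the values described. As means with SD (n = 3), the untreated groups came to 12.9% ± 4.96 (control mimic), 8.28% ± 0.445 (miR-222), 6.55% ± 1.95 (miR-455) and 11.8% ± 8.46 (both). The treated groups came to 18.7% ± 13.4, 9.66% ± 1.94, 13.0% ± 0.731 and 16.4% ± 4.26 in the same order. Counting all 13 genes, the miR-222 untreated mean was 9.07% and the miR-455 treated mean 14.6%.

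**Figure D1:**
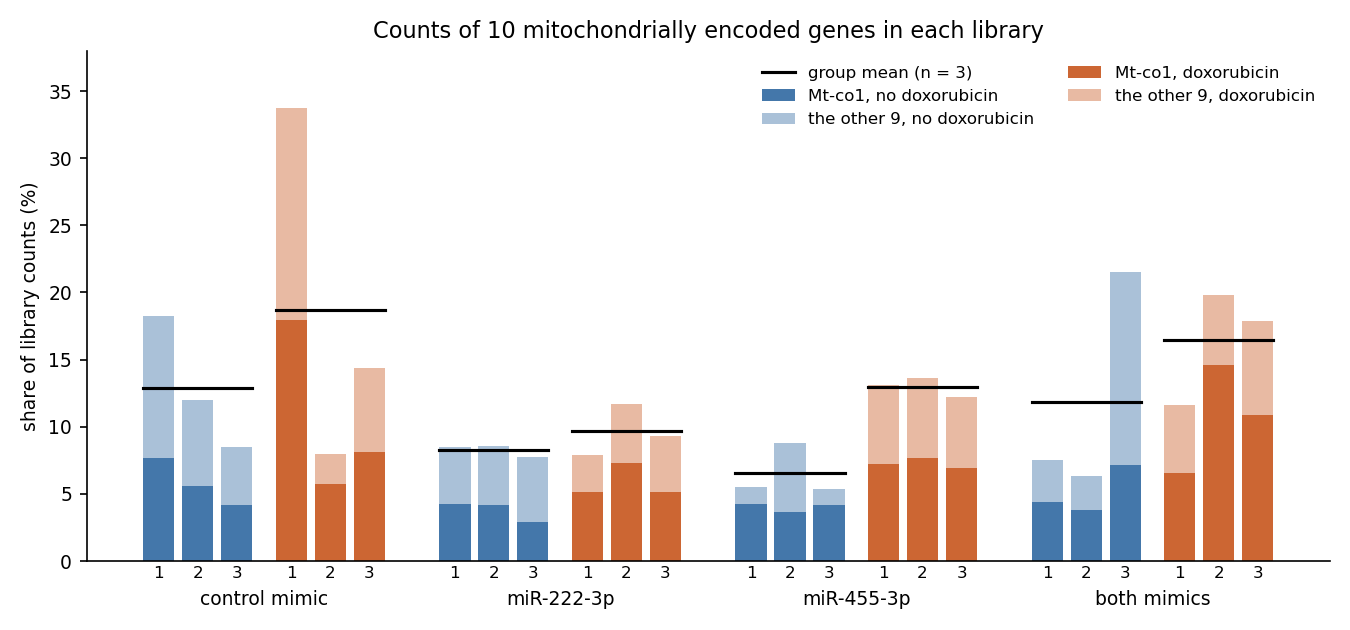
Stacked bars give the percentage of each library's counts from Mt-co1 (dark) and from the other 9 genes (light), 1 bar per library with its replicate number, in blue without and orange with doxorubicin; black lines are means of 3 libraries. The tallest bar, replicate 1 of the control mimic with doxorubicin, reaches 33.7%, and 3 further bars (19.8%, 21.6% and 18.3%) are the other libraries with few genes.

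The sum was not a single unit. Mt-co1, the catalytic core of cytochrome c oxidase (complex IV), took 2.94% to 17.99% of a library, and the other 9 genes together took 1.21% to 15.8%, a 13.0-fold range. Mt-co1 thus made up between 33.1% and 77.4% of the counts of the 10 genes. The lowest of these values belonged to replicate 3 of both mimics without doxorubicin. The highest, 77.4%, was shared by replicates 1 and 3 of miR-455 without doxorubicin, while replicate 2 of that group had 41.3%. Over the 24 libraries, the share of the library varied least for Mt-co3 (5.03-fold) and Mt-co1 (6.12-fold) and most for Mt-nd1 (40.5-fold), Mt-atp6 (36.5-fold) and Mt-co2 (33.7-fold). Within groups, the median coefficient of variation over the 8 groups was 25.9% for Mt-co1 and 48.7% for Mt-co2. Transcript lengths were not used here, so these shares rank no gene's level against another's.

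Averaged over the 4 mimic conditions, 4 of the 10 genes rose with doxorubicin and none fell. The 4 were Mt-nd1 of complex I, Mt-co1 and Mt-co3 of complex IV and Mt-atp8 of ATP synthase, by 0.75 to 1.56 on the log2 scale. Of all 14303 genes tested, 23.8% were called higher in the same comparison, so 4 of 10 is to be read against that share. The median log2 change of the 10 genes was 0.86, beside -0.02 over all genes. The fold changes come from an edgeR fit that scales each library by its trimmed-mean (TMM) factor. These factors were 0.572 to 1.01 in treated and 1.04 to 1.37 in untreated libraries, so a scaled change is larger than the change in plain share. With library totals alone the median of all genes moved to -0.52 and the calls over all genes went from 3405 higher and 3474 lower to 1749 higher and 6716 lower. On that scale Mt-co1, Mt-atp8 and Mt-nd1 still passed (0.85, 0.83 and 1.00), Mt-co3 did not (0.19, adjusted p = 0.497), and Mt-cyb and Mt-nd6 changed sign to -0.24 each. Leaving out replicate 3 of both mimics without doxorubicin raised the count from 4 to 8, leaving out replicate 2 of miR-455 without doxorubicin to 7, and leaving out the 4 libraries with few genes to 8. Over all genes, 24.9%, 23.6% and 29.6% were called higher in those 3 fits. The 4 libraries with few genes are those with the highest summed shares, so the last fit is selected on the values described.

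Of the complex IV genes, Mt-co1 had the smallest adjusted p. It took 7.69%, 5.59% and 4.15% of counts with the control mimic and 17.99%, 5.76% and 8.09% after adding doxorubicin. With miR-222 its shares were 4.25%, 4.21% and 2.94% untreated and 5.14%, 7.27% and 5.12% treated, and with miR-455 they were 4.25%, 3.63% and 4.14% against 7.24%, 7.68% and 6.93%. With both mimics they were 4.36%, 3.80% and 7.14% untreated and 6.59%, 14.6% and 10.9% treated. Treated libraries lay above untreated ones in Mt-co1 share without overlap for miR-222 and for miR-455, and the ranges overlapped for the control mimic and for both mimics. The averaged log2 change was 1.40 ± 0.24 (SE, adjusted p = 6.71e-05, edgeR quasi-likelihood test with Benjamini-Hochberg adjustment), and this call held in 32 of 32 alternative settings. Mt-co3, another core subunit, ranged from 0.326% through a median of 0.934% to 1.35% in the 12 untreated libraries and from 0.332% through 0.979% to 1.64% in the 12 treated ones. Its ranges overlapped widely, its averaged change was 0.75 ± 0.25 (adjusted p = 0.02), and the call held in 30 of 32 settings. Of the 32 settings 24 each left out 1 library, and in the other 8 the Mt-co3 call held in 6. Mt-co2, which carries the copper site that receives electrons from cytochrome c, had a change of 0.98 ± 0.47 (adjusted p = 0.0906) and did not pass.

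The ATP synthase genes overlap each other in the mitochondrial genome and share one message, so reads in the overlap could be counted for either. Mt-atp8 took 0.0218%, 0.0278% and 0.0150% of counts with the control mimic and 0.0499%, 0.0229% and 0.0340% with doxorubicin added. With miR-455 it took 0.00237%, 0.0139% and 0.00271% untreated and 0.0243%, 0.0230% and 0.0201% treated. The control mimic ranges overlapped and the miR-455 ranges did not. With miR-222 the shares were 0.0122%, 0.0137% and 0.0172% against 0.0154%, 0.0143% and 0.0165%, and with both mimics 0.00778%, 0.00751% and 0.0220% against 0.0184%, 0.0125% and 0.0280%, overlapping in each case. The averaged log2 change of Mt-atp8 was 1.38 ± 0.27 (adjusted p = 0.000321, edgeR with Benjamini-Hochberg adjustment), which held in 32 of 32 settings. Mt-atp6, the proton-channel subunit, changed by 1.05 ± 0.45 and did not pass (adjusted p = 0.0589), although DESeq2 called it. Mt-atp8 counts were 0.894% to 8.79% of Mt-atp6 counts across the 24 libraries. The highest ratio was in replicate 2 of the control mimic with doxorubicin and the lowest in replicate 3 of both mimics without it.

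Of the 4 complex I subunits among the 10 genes, Mt-nd1 alone passed, and it rose. It took 1.01%, 0.590% and 0.314% of counts with the control mimic and 3.00%, 0.328% and 1.09% with doxorubicin added. With miR-222 it took 0.257%, 0.279% and 0.474% untreated and 0.344%, 0.454% and 0.669% treated. These ranges overlapped. With miR-455 it took 0.0974%, 0.534% and 0.0741% untreated and 0.991%, 1.03% and 0.886% treated, with no overlap, and with both mimics 0.233%, 0.184% and 1.77% against 0.807%, 0.596% and 1.13%, with overlap. The averaged log2 change of Mt-nd1 was 1.56 ± 0.44 (adjusted p = 0.00564, edgeR with Benjamini-Hochberg adjustment), and the call held in 32 of 32 settings. Mt-nd4 and Mt-nd5, membrane subunits of the proton pump that are encoded late on the heavy strand, had changes of 0.66 ± 0.35 (adjusted p = 0.133) and 0.57 ± 0.34 (adjusted p = 0.177). Mt-nd6, from the light strand, had 0.32 ± 0.30 (adjusted p = 0.413). The remaining gene, Mt-cyb, is the mitochondrially encoded subunit of complex III and had 0.31 ± 0.34 (adjusted p = 0.478).

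**Figure D2:**
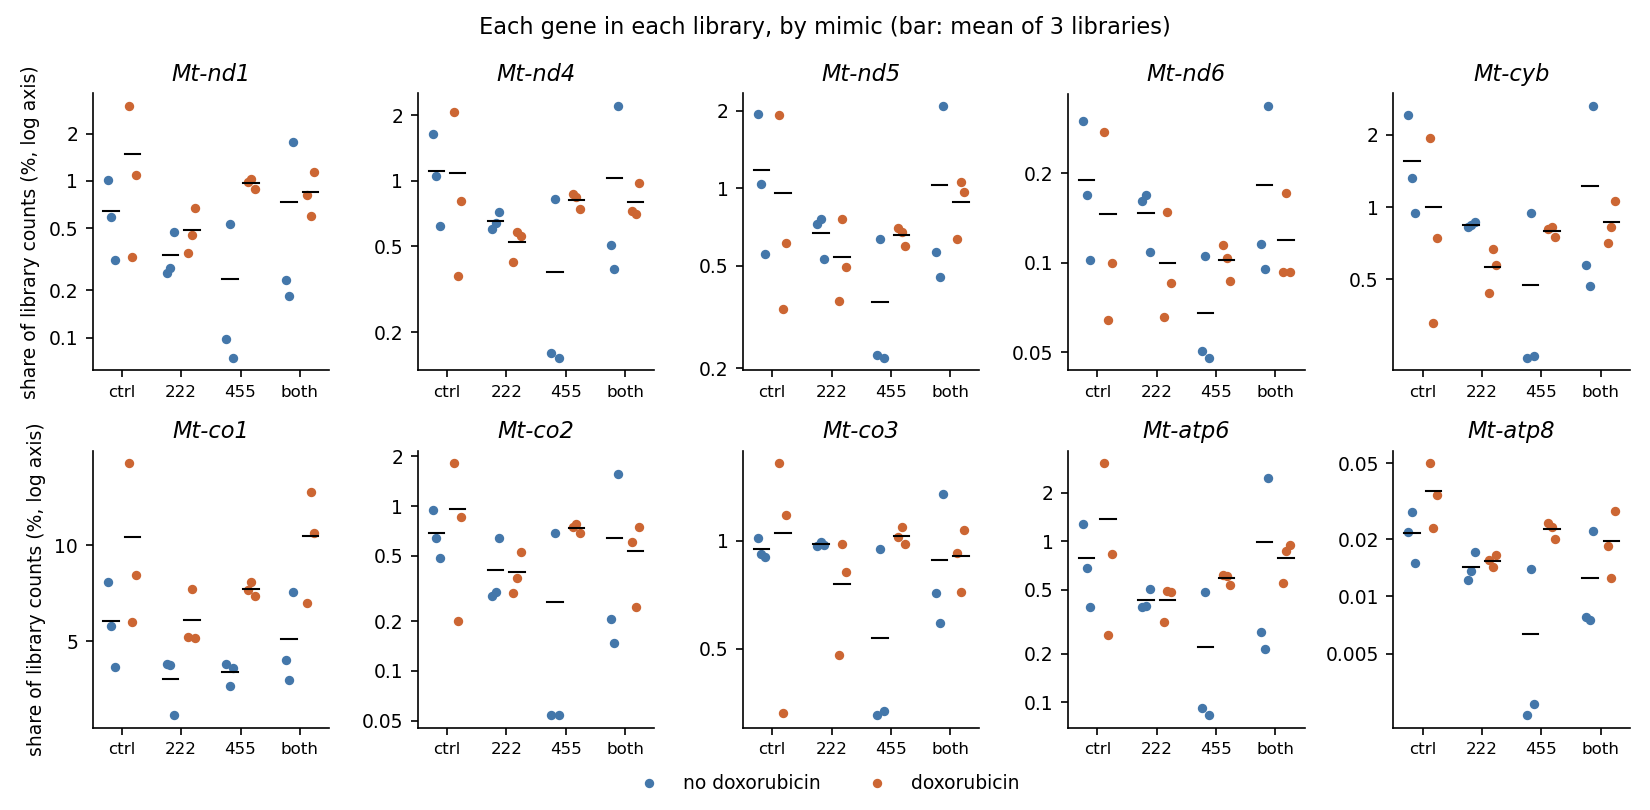
Each panel gives 1 gene's share of library counts in percent on a log axis, by mimic (ctrl is the control mimic, and the next labels are the numbers of the miRNAs), with 1 point per library, blue without and orange with doxorubicin, and a black bar at the mean of 3 libraries. Replicates 1 and 3 of miR-455 without doxorubicin are the lowest of all 24 libraries for 8 of the genes (0.0542% and 0.0539% for Mt-co2) but not for Mt-co1 (4.25% and 4.14%).

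Within single mimic conditions fewer of the 10 genes passed. With the control mimic, Mt-co1 (1.72 ± 0.48, adjusted p = 0.0118) and Mt-atp8 (1.55 ± 0.55, adjusted p = 0.0414) rose, 2 of 10 beside 15.2% of all genes called higher. That count fell to 0 without replicate 1 of the treated group, without replicate 2 or without replicate 3 of the untreated group. It was 1 without replicate 1 of the untreated or replicate 3 of the treated group, and 4 without replicate 2 of the treated group. With miR-222 none passed, beside 7.76% of all genes, and 1 gene (Mt-co1) had an unadjusted p under 0.05 while DESeq2 also called 0. In plain share with miR-222, 1 of the 10 genes was higher and 2 were lower without overlap, and neither count was above its share over all genes. Mt-co1 was higher in every treated library, beside 11.7% of all genes, whereas Mt-cyb (0.824% to 0.868% untreated, 0.440% to 0.672% treated) and Mt-nd4 (0.598% to 0.717% untreated, 0.424% to 0.581% treated) were lower in every treated library, beside 45.1% of all genes. On the scaled log2 measure these 2 genes had -0.09 and 0.17, with no call. With miR-455, Mt-atp8 rose (2.32 ± 0.56, adjusted p = 0.0071), 1 of 10 beside 9.02%, and 6 of the 10 shares were higher in every treated than in every untreated library, beside 15.4% of all genes. DESeq2 called 4 of the 10 there, and the edgeR count was 5 without replicate 2 of the untreated group and 10 without the 4 libraries with few genes, none of which is in these 2 groups. In these 3 fits 11.9%, 7.86% and 17.3% of all genes were called higher, so the last count rose together with that over all genes. With both mimics, Mt-co1 rose (1.52 ± 0.48, adjusted p = 0.0362), 1 of 10 beside 7.85%. It did not pass without replicate 1 or 2 of the untreated or replicate 2 or 3 of the treated group, and without replicate 3 of the untreated group 3 genes passed. With library totals alone, 6 of the 10 estimates were above 0 for the control mimic, 3 for miR-222, 10 for miR-455 and 4 for both mimics. Without the 4 libraries with few genes, 7 were above 0 for the control mimic, and with close pairs summed 4 were above 0 for both mimics. With library totals alone the calls over all genes went from 2171 higher and 1765 lower to 1078 and 4698 with the control mimic, and from 1110 and 983 to 426 and 2717 with miR-222. They went from 1290 and 1303 to 702 and 2760 with miR-455, and from 1123 and 1035 to 489 and 2832 with both mimics.

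A call in 1 mimic condition and not in another does not show that the conditions differ, so the difference of the doxorubicin changes was tested directly. For miR-222 against the control mimic, the 10 differences ran from -1.23 to -0.33 and none passed (0.0489% of all genes did). For miR-455 they ran from -0.46 to 0.99 with none called, as for all genes (0%), and for both mimics from -1.69 to -0.19 with none called (0.0559% of all genes). In each of the 3 comparisons 0 of the 10 had an unadjusted p under 0.05 in edgeR and DESeq2 called 0. Standard errors of these differences were 0.66 to 1.31, so differences of about 1 on the log2 scale were not detectable with 3 libraries per group.

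The make-up of the mitochondrial pool was examined by setting each gene against the sum of the 10. The ratio of a gene to that sum does not depend on the total share. Its adjusted p does, because the adjustment runs over all 14303 genes tested, most of which shift on this scale with that share. Averaged over the mimic conditions, Mt-nd6, Mt-cyb and Mt-nd5 fell relative to the pool, and no gene rose. The log2 changes were -0.78 ± 0.17 for Mt-nd6 (adjusted p = 0.000555), -0.72 ± 0.19 for Mt-cyb (adjusted p = 0.00309) and -0.51 ± 0.18 for Mt-nd5 (adjusted p = 0.0176), all from edgeR with Benjamini-Hochberg adjustment. The sum took a median of 12.7% of treated and 8.47% of untreated libraries, and 56.4% of all genes were called lower on this scale, where the median over all genes was -1.04, beside -0.17 for the 10. The 3 of 10 is below that 56.4%, but the 10 genes make up the reference and the other genes do not. The count therefore cannot be weighed against that background, and these calls describe only the shares within the pool. Mt-co1 makes up much of the reference, and with the sum of the other 9 as reference 1 gene passed, Mt-nd1, which was higher (0.88, adjusted p = 0.00737), while Mt-nd6 had -0.55 (adjusted p = 0.106) and Mt-cyb -0.45 (adjusted p = 0.112). Without replicate 2 of miR-455 without doxorubicin, 5 of the 10 passed.

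By mimic condition, the pool fit called Mt-cyb lower with the control mimic (-1.23 ± 0.39, adjusted p = 0.0361), beside 14.8% of all genes, a call lost on leaving out any 1 of the 6 libraries but replicate 2 of the treated group. It called Mt-nd6 lower with both mimics (-1.07 ± 0.34, adjusted p = 0.0312), beside 25% of all genes, a call lost without replicate 1 or 2 of the untreated or replicate 2 or 3 of the treated group. None of the 10 was called with miR-222 (3.08% of all genes lower, 2 of the 10 at an unadjusted p under 0.05) or with miR-455 (33.7% of all genes, 2 of the 10 at an unadjusted p under 0.05). With miR-455, leaving out replicate 2 of the untreated group gave 5 calls.

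Mt-nd6 is the one gene whose share of the pool was lower in every treated than in every untreated library of all 4 mimic conditions. With the control mimic it made up 1.64%, 1.41% and 1.205% of the pool untreated and 0.813%, 0.806% and 0.698% treated. With miR-222 the values were 1.91%, 1.97% and 1.40% against 0.833%, 1.26% and 0.915%, and with miR-455 they were 0.922%, 1.195% and 0.896% against 0.872%, 0.762% and 0.714%. With both mimics they were 1.53%, 1.503% and 1.56% against 0.802%, 0.868% and 0.519%. The gap was narrowest for miR-455, where the lowest untreated value, 0.896%, and the highest treated value, 0.872%, nearly met. Across mimic conditions the ranges of the 12 untreated (0.896% to 1.97%) and 12 treated libraries (0.519% to 1.26%) overlapped. On this scale 13.7% of all genes were lower without overlap in all 4 conditions, so 1 of 10 is not above that share. The 10 genes make up the reference, so neither this background nor the next can weigh their counts. Mt-cyb and Mt-nd5 were lower without overlap in 3 of the 4, all but miR-455. Counting those with Mt-nd6 gives 3 of 10 genes lower in 3 or 4 conditions, beside 24.8% of all genes. The counting strand is not given in the sources used here, so Mt-nd6 reads and reads from the heavy-strand RNA opposite to it cannot be told apart. The libraries come from polyA RNA, and how fully that captured Mt-nd6 beside the other genes was not tested. Beside its heavy-strand neighbour Mt-nd5, Mt-nd6 had 0.155 to 0.225 counts per Mt-nd5 count in untreated and 0.0962 to 0.196 in treated libraries, which overlapped.

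**Figure D3:**
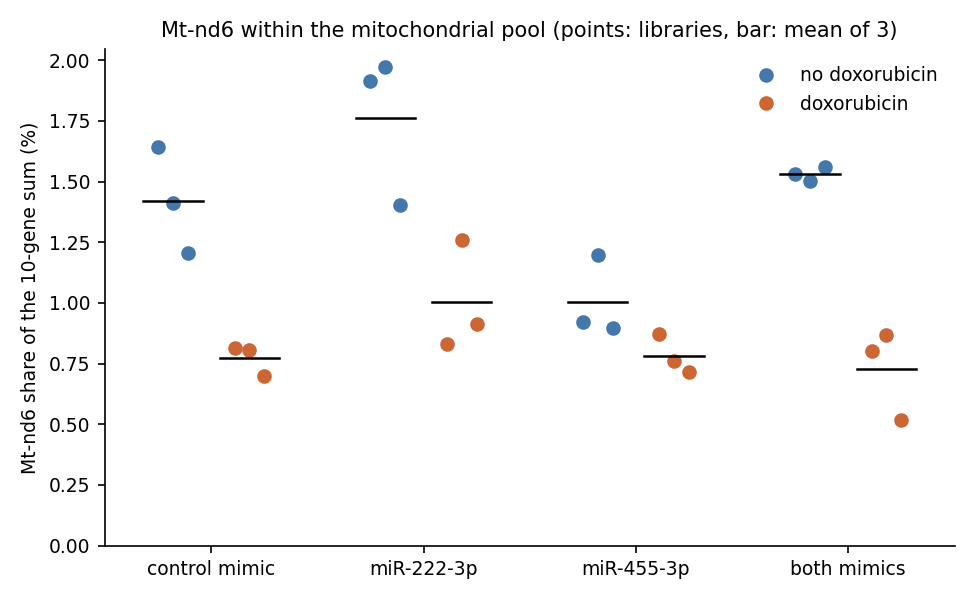
Points give the Mt-nd6 percentage of the summed counts of the 10 genes in each library, by mimic, in blue without and orange with doxorubicin, and black bars are means of 3 libraries. In each mimic condition all orange points lie below all blue ones, with the narrowest gap for miR-455 (0.872% below 0.896%).

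The doxorubicin changes of the heavy-strand genes were set against gene position. This pattern was noticed after the values were seen and is given as a description. Along the heavy strand from Mt-nd1 to Mt-cyb, the Spearman correlation over the 9 heavy-strand genes between position and the change in mean log2 count was -0.95 for the control mimic, -0.917 for miR-222, -0.5 for miR-455 and -0.917 for the combination. The genes share libraries and one precursor transcript, so they are not independent points. With each treated library taken alone against the untreated mean, the values were -0.85, -0.633 and -0.933 for the control mimic, -0.817, -0.667 and -0.967 for miR-222 and -0.483, -0.5 and -0.5 for miR-455. For the combination they were -0.9, -0.333 and -0.95, the weakest being replicate 2, one of the libraries with few genes. With all 12 heavy-strand protein genes the values were -0.951, -0.846, -0.615 and -0.888. In the same order of conditions, the gene nearer the start had the larger change in 34, 32, 27 and 32 of 36 gene pairs. With miR-455 the main exception was Mt-co1, with a log2 change of 1.25 ± 0.48, below its neighbours Mt-nd1 (2.54 ± 0.90) and Mt-co2 (2.01 ± 0.96). Mt-co3 minus the later Mt-nd4 (-0.447) and Mt-nd5 minus Mt-cyb (-0.024) also went against the order there. Leaving out replicate 1 of that condition's untreated group gave -0.8 and leaving out replicate 3 gave -0.783. For the mimics against the control mimic, the correlation was 0.2 for miR-222, 0 for miR-455 and 0.117 for both without doxorubicin. With doxorubicin it was 0.617, 0.25 and 0.617, which is the opposite direction, and these 3 comparisons share the treated control libraries. With 12 genes the values ran from -0.112 to -0.028 without doxorubicin and were 0.517, 0.273 and 0.49 with it.

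**Figure D4:**
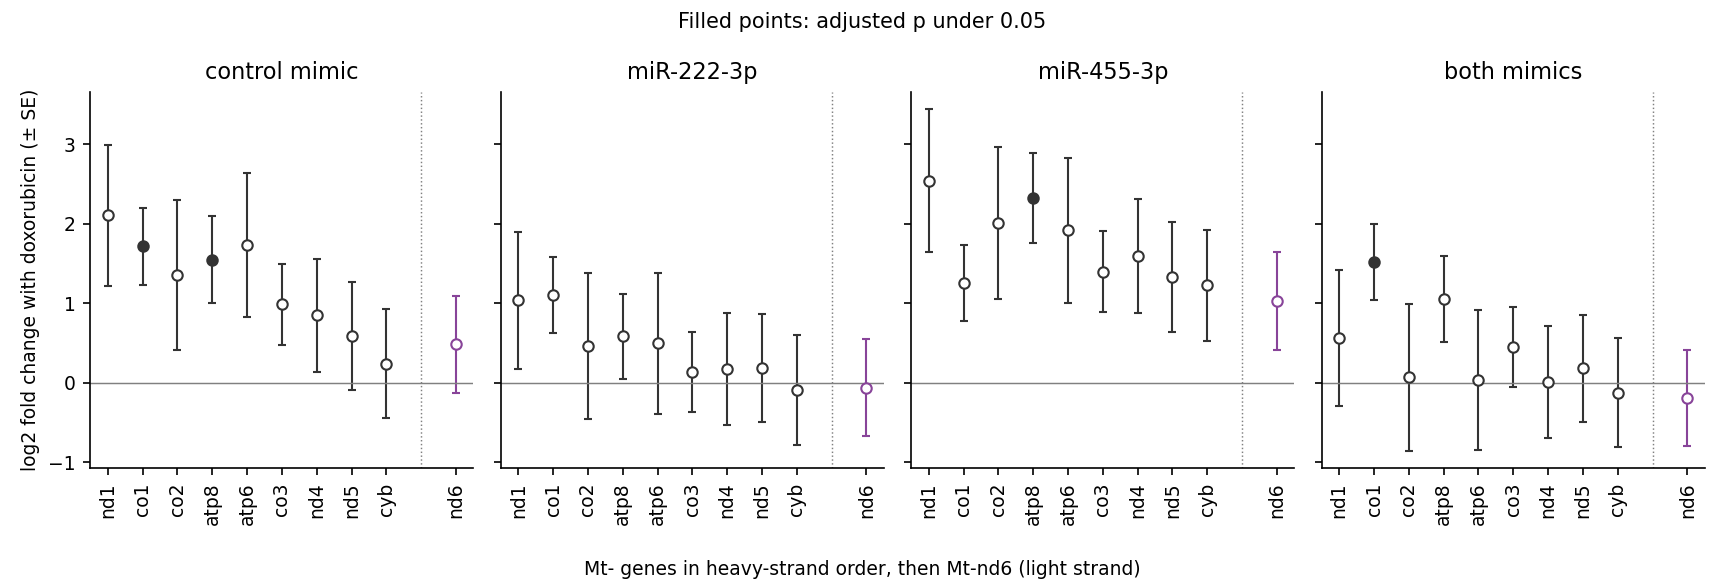
Points give each gene's log2 fold change with doxorubicin (edgeR, ± SE) in 1 panel per mimic condition, with heavy-strand genes in order of transcription and the light-strand gene Mt-nd6 after the dotted line; filled points have an adjusted p under 0.05. In the control mimic panel the points go from 2.11 for Mt-nd1 to 0.24 for Mt-cyb, with Mt-co2 (1.36) below the genes that follow it, Mt-atp8 (1.55) and Mt-atp6 (1.73), and standard errors of neighbouring genes overlap.

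The genes at the ends of the heavy-strand order were set against each other. There were 0.419, 0.446 and 0.332 Mt-nd1 counts per Mt-cyb count with the control mimic and 1.55, 1.00 and 1.47 with doxorubicin added. With miR-222 the ratio was 0.312, 0.333 and 0.547 against 0.782, 0.677 and 1.16, and with miR-455 it was 0.414, 0.566 and 0.310 against 1.23, 1.24 and 1.19. With both mimics it was 0.407, 0.393 and 0.669 against 1.14, 0.721 and 1.07. All 12 treated libraries (0.677 to 1.55) lay above all 12 untreated ones (0.310 to 0.669), including the libraries with few genes, although the nearest values, 0.677 and 0.669, were close. The mean log2 ratio was higher with doxorubicin by 1.73 (control mimic), 1.15 (miR-222), 1.54 (miR-455) and 1.01 (both mimics). Mt-nd1 to Mt-nd4 was the only other pair of the 10 genes apart in the same direction in all 4 mimic conditions, which makes 2 of 45 pairs or 4.44%. Of 102280753 pairs among all genes tested 10.2% were apart in that way, so the pair was picked from many and the count for the 10 genes lies below the background.

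**Figure D5:**
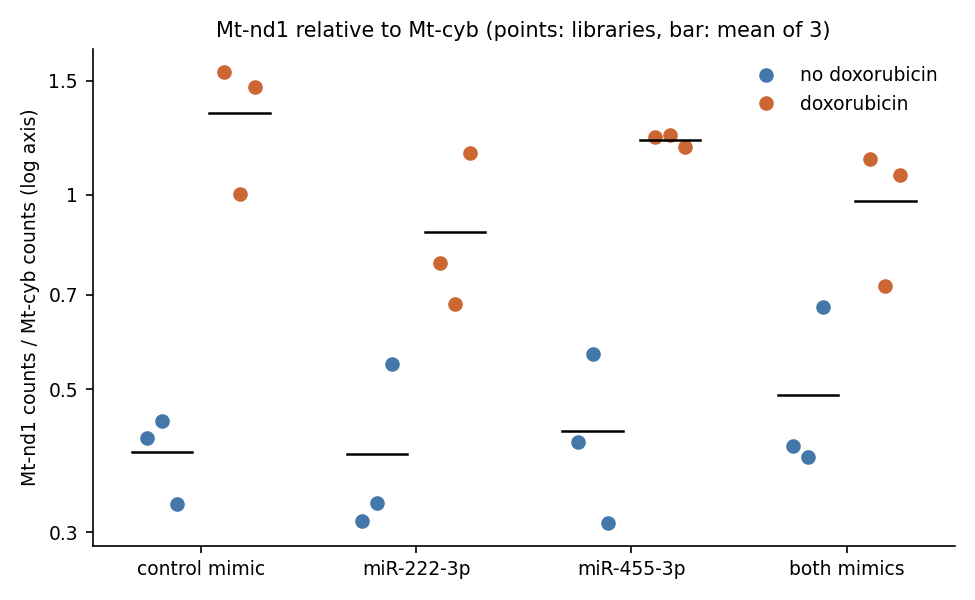
Points give Mt-nd1 counts divided by Mt-cyb counts in each library on a log axis, by mimic, in blue without and orange with doxorubicin, and black bars are means of 3 libraries. The orange points span 0.677 to 1.55 and the blue points 0.310 to 0.669.

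Neither mimic, alone or combined, gave a call for any of the 10 genes in edgeR. Without doxorubicin, miR-222 gave log2 changes of -1.09 to -0.09 relative to the control mimic, with 0 of 10 called beside 8.97% of all genes and 0 of 10 at an unadjusted p under 0.05. miR-455 gave -1.86 to -0.44, with 0 of 10 called beside 4.72% of all genes and 5 of 10 at an unadjusted p under 0.05. DESeq2 called 1 gene lower there, Mt-atp8 (edgeR -1.75 ± 0.55, adjusted p = 0.0677). Leaving out replicate 2 of the miR-455 group gave 4 calls, and leaving out replicate 3 of the control mimic gave 1. Both mimics gave -0.72 to 0.42, with 0 of 10 called beside 7.06% of all genes, 0 at an unadjusted p under 0.05 and 0 by DESeq2. Leaving out replicate 3 of both mimics gave 1 call. The direction for both mimics depended on the libraries used. Of the 10 estimates 8 were below 0, all 10 were without the 4 libraries with few genes (-1.74 to -0.33), and 2 were with close pairs summed (-0.46 to 0.87).

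With doxorubicin the mimics were compared in the same way. miR-222 gave -2.26 to -0.94, with 0 of 10 called beside 3.95% of all genes, 5 of 10 at an unadjusted p under 0.05 and 2 called lower by DESeq2. Leaving out replicate 2 of the treated control mimic gave 1 call in edgeR. miR-455 gave -1.67 to -0.37, with 0 called beside 2.5% of all genes, 0 at an unadjusted p under 0.05 and 0 by DESeq2. Both mimics gave -1.31 to -0.36, with 0 called beside 5.55%, 1 at an unadjusted p under 0.05 and 0 by DESeq2. All 10 estimates were below 0 in each of these comparisons, or 10, 10 and 9 of 10 with library totals alone. They share the treated control libraries, of which replicate 1 had a summed share of 33.7%. Without the 4 libraries with few genes, that one included, 9 of 10 were still below 0 for miR-222 (-1.10 to 0.087), but 8 of 10 were above 0 for miR-455 (-0.41 to 0.48) and 9 of 10 for both mimics (-0.42 to 0.62). With library totals alone the median of all genes shifted to 0.34 for miR-222, 0.21 for miR-455 and 0.17 for both mimics, and the split over all genes for miR-222 went from 227 higher and 338 lower to 541 higher and 141 lower. For miR-455 with doxorubicin that split went from 94 and 264 to 123 and 125, and for both mimics from 397 and 397 to 997 and 235. Without doxorubicin it went from 644 and 639 to 704 and 411 for miR-222 and from 353 and 322 to 194 and 412 for miR-455.

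The question of combined action was addressed by setting the change with both mimics against the sum of the single changes. Without doxorubicin the excess was 0.81 to 3.31 on the log2 scale with none of the 10 called beside 0.014% of all genes. With doxorubicin it was 0.72 to 2.66 with none called beside 0.0419%. In these comparisons 7 and 2 of the 10 had an unadjusted p under 0.05 and DESeq2 called 0. Within the pool, no gene was called for miR-222, miR-455 or both mimics without doxorubicin (0.266%, 0.0559% and 0.126% of all genes called) or with it (0.0909%, 0.021% and 0.0769%). In the pool fit, 3 of the 10 had an unadjusted p under 0.05 for miR-455 without doxorubicin and 0 in the other 5.

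The low values of miR-455 without doxorubicin sat in 2 libraries. In replicates 1 and 3 the 9 genes other than Mt-co1 summed to 1.25% and 1.21% of counts, against 5.17% in replicate 2. A list of 9 hypoxia-induced genes (such as Slc2a1, Pdk1 and Egln3), chosen after the data were seen, averaged 8.66 and 8.87 log2(CPM + 1) in those libraries and 7.09 in replicate 2. In the untreated libraries of both mimics the list averaged 8.83 and 8.83 in replicates 1 and 2, where the 9 genes summed to 3.19% and 2.55%, and 6.46 in replicate 3, where they summed to 14.4%. With miR-222 the list averaged 8.79, 8.75 and 6.60 while the 9 genes summed to 4.22%, 4.39% and 4.83%. These libraries are also the close pairs named above. The part of the hypoxia genes in the mitochondrial shares was not tested. Summing each close untreated pair to 1 library left 3 of the 10 genes called in the averaged comparison and 0 with miR-455. The 3 close libraries of miR-455 with doxorubicin were kept apart in that fit, so it does not cover a culture shared by them.

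The other genes of the mitochondrial gene system were described from lists of known function. Of the 3 remaining mitochondrially encoded genes, in the averaged comparison, Mt-nd2, a complex I subunit encoded between Mt-nd1 and Mt-co1, was called higher (1.48 ± 0.37, adjusted p = 0.00236), with Mt-nd3 (0.75 ± 0.36, adjusted p = 0.0928) and Mt-nd4l (0.59 ± 0.48, adjusted p = 0.323) not called. Mt-nd4l overlaps Mt-nd4 in the genome. Most nuclear-encoded partners of the same complexes rose, beside 23.8% of all genes: 11 of 12 complex I subunits, 9 of 9 complex III subunits, 10 of 10 tested complex IV subunits and 7 of 8 ATP synthase subunits, with none lower. Their median log2 changes were 1.24, 1.57, 1.45 and 1.05 in that order, beside -0.02 over all genes. With library totals alone, where 12.2% of all genes were called higher, the counts were 9, 8, 9 and 6, again with none lower. Examples are Ndufa10 (1.70 ± 0.10, adjusted p = 6.76e-11) of complex I, Uqcrc2 (1.63 ± 0.11, adjusted p = 3.44e-10) of complex III, Cox6b1 (1.56 ± 0.17, adjusted p = 3.25e-07) of complex IV and Atp5f1a (1.57 ± 0.14, adjusted p = 1.38e-08) of ATP synthase. The 9 heavy-strand genes had changes of 0.31 to 1.56, and no test compared the nuclear and mitochondrial lists.

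Genes acting on mitochondrial DNA and RNA were set beside all genes, of which 23.8% were called higher and 24.3% lower with doxorubicin. Of 20 genes of mitochondrial DNA transcription and replication, 4 rose and 5 fell, with a median of 0.00, which is near the background in both directions. Rrm2b, a ribonucleotide reductase subunit induced by p53, rose by 1.22 ± 0.14 (adjusted p = 4.23e-07), and Polg2, the accessory subunit of the mitochondrial DNA polymerase, rose by 1.36 ± 0.22 (adjusted p = 3.48e-05). Mterf4, a regulator of mitochondrial ribosome assembly, changed by -1.05 ± 0.17 (adjusted p = 3.01e-05) and Tfb1m, a ribosomal RNA methyltransferase, by -0.94 ± 0.17 (adjusted p = 0.000134). Of 19 genes of mitochondrial RNA processing and turnover, 7 rose and 4 fell. Lrpprc, which stabilises mitochondrial messages, rose by 1.12 ± 0.12 (adjusted p = 2.76e-07). Hsd17b10, a subunit of the enzyme that cuts transfer RNAs from the precursor at their 5′ end, rose by 1.04 ± 0.14 (adjusted p = 3.2e-06). With library totals alone these 2 lists went to 2 higher and 11 lower and to 2 higher and 10 lower. Of 10 regulators of mitochondrial gene programmes, 6 fell and none rose, with a median of -0.76. With library totals alone 9 of these regulators fell, with a median of -1.26 beside -0.522 over all genes. The coactivators Ppargc1a (-2.67 ± 0.23, adjusted p = 9.29e-09) and Ppargc1b (-3.12 ± 0.32, adjusted p = 1.06e-07) and the nuclear receptor Esrrg (-3.70 ± 0.37, adjusted p = 9e-08) changed most clearly. Heart muscle markers did not shift together, with 2 higher and 2 lower of 7, and fibroblast markers had 2 higher of 5, or 4 of 5 without the libraries with few genes, and 0 higher and 1 lower with library totals alone. Of 4 tested smooth muscle and pericyte markers, Myh11 (0.82), Tagln (0.52) and Pdgfrb (0.58) rose and Acta2 fell (-0.97), or 0 rose and 1 fell with library totals alone. Of 4 endothelial markers Tek rose (0.77) and Kdr, the main VEGF receptor, fell (-3.71), with Kdr at 0.233 to 59.4 CPM. The part of cell composition in the mitochondrial values was not tested.

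The nuclear genes whose levels followed the summed mitochondrial counts most closely over the 24 libraries were Dynlrb1 (Spearman 0.917), Mnda (0.915), Glrx (0.904), Uqcrb (0.889), Eif2s3 (0.888) and Cox6c (0.874), out of 9829 genes ranked. Dynlrb1 encodes a dynein light chain, Glrx glutaredoxin, Uqcrb a complex III subunit and Cox6c a complex IV subunit. Over all ranked genes the values ran from -0.946 to 0.917 with a median of -0.16. Both levels are per nuclear-gene count of the same library, so they share that denominator. Within the 12 treated libraries the values for these 6 genes were 0.902 to 0.979 and within the 12 untreated ones 0.469 to 0.902.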

How the data were processed

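Estimated counts per gene for 24 libraries, which the authors made with tools including Salmon and DESeq2 on rat build Rnor_6.0 (per the submitters' processing notes), were taken as deposited and not normalized. The strand setting, tool versions and the filter behind the table were not given in the sources used here. Reads from nuclear copies of mitochondrial DNA may be included. Counts were rounded to whole numbers, which altered 2 of the 240 values of these genes (7.35% of all values).

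Tests used edgeR 4.0.16 in R 4.3.3 (quasi-likelihood F test, 8 group means, filterByExpr, TMM, Benjamini-Hochberg over 14303 genes, called at adjusted p under 0.05). A second fit took the sum of the 10 genes as library size. DESeq2 1.42.0, other scalings, no filter, fits of only the groups compared, a replicate block, and each library left out were alternatives. Percentages, ratios and rank correlations were computed in Python 3.11.15. The scripts were tested on simulated data. The 10 genes and the lists were chosen with earlier results of these data known. All 10 genes are counted in every comparison, with values by name where the results turn on them. Genes whose changes are given from the other lists are among the 4 with the smallest p in the averaged doxorubicin comparison. Depth was 17311949 to 25750309 counts per library. Same-numbered libraries did not deviate together (median correlation -0.02 over 84 pairs, 16 above 0.1), so no pairing was used.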

Additional observations from a re-analysis of the deposited data

How the results depend on the processing

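Of 533 alternative values for the counts, shares, ratios and rank correlations reported, 467 stayed within 1.5 times (counts) or 1 SD (other values) of the value given, 66 moved further and 0 reversed. Directions of estimates with no call are not part of that count. Some of those did turn with library totals alone, without the 4 libraries with few genes or with close pairs summed, as given with the comparisons. Part of the tally was fixed in advance, since a count or a share could not be labelled reversed. With 3 libraries in a group, leaving 1 out cannot move a mean share or the Mt-nd1 to Mt-cyb ratio by 1 SD. The averaged doxorubicin calls of Mt-co1, Mt-atp8 and Mt-nd1 held in 32 of 32 alternatives and that of Mt-co3 in 30. Of these alternatives 24 each left out 1 library and share most of the data. In the other 8, Mt-co3 held in 6. Relative to the pool, the averaged calls of Mt-nd6 and Mt-cyb held in 29 of 30 and that of Mt-nd5 in 28. Again 24 left out 1 library, and in the other 6 Mt-nd6 and Mt-cyb held in 5 and Mt-nd5 in 4. The cause of the changes below was not tested.

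For the number of the 10 genes called with doxorubicin, library totals alone gave 0 with the control mimic, and DESeq2 gave 4 with miR-455. Fitting only the groups compared gave 0 with the control mimic, 3 for miR-222, 7 for miR-455 and 0 for the combination. The share of all genes called in those fits is not given here, so these counts are no result about the 10 genes. Leaving out 1 library at a time gave 0 to 4 with the control mimic, 1 to 5 with miR-455, 0 to 3 with both mimics and 4 to 8 for the average. The alternatives chosen after the data were seen dropped the 4 libraries with few genes (those with the highest summed shares) or summed close pairs. Dropping those libraries gave 1 with the control mimic, 1 for miR-222, 10 for miR-455, 4 for the combination and 8 for the average. Genes called higher among all genes went in that order from 2171, 1110, 1290, 1123 and 3405 to 2734, 2294, 2501, 2276 and 4277. Summing close pairs gave 0 with miR-455 and 0 with both mimics, beside 577 and 553 of all genes called higher. Some counts from alternative fits, here or elsewhere, are given without the number over all genes. Such a count shows only that the main count moved or stayed and is no result about the 10 genes.

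The replicate number, used as a replicate block, gave 1 call with the control mimic, 0 with both mimics and, relative to the pool, 0 with the control mimic, and moved no other count by over 1.5 times.

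For the mimic comparisons, DESeq2 gave 1 call for miR-455 without doxorubicin and 2 for miR-222 with it. Over all genes it called 996 higher and 922 lower in the first and 430 higher and 617 lower in the second. Omitting the 4 libraries with few genes gave 1 for miR-455 and 1 for both mimics, both without doxorubicin. All genes then had 1013 higher and 983 lower for miR-455, and 1813 higher and 1901 lower for both mimics. Leaving out 1 library at a time gave 0 to 4 for miR-455 and 0 to 1 for both mimics without doxorubicin, and 0 to 1 for miR-222 with it.

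Relative to the pool with doxorubicin, the control mimic and both mimics each gave 0 without a filter, 0 with the sum without Mt-co1 as reference and 0 with close pairs summed, and the average gave 1 with the sum without Mt-co1. Omitting the 4 libraries with few genes gave 2 with miR-222, 2 with miR-455 and 5 for the average. Leaving out 1 library at a time gave 0 to 1 with the control mimic, 0 to 1 with both mimics, 0 to 5 with miR-455 and 3 to 5 for the average.

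With all 13 genes the summed share was 9.07% for untreated miR-222 and 14.6% for treated miR-455. The rank correlation along the heavy strand with miR-455 was -0.615 with 12 genes and -0.8 to -0.417 with 1 library left out. Depth did not limit these abundant genes. With 3 libraries per group, differences between the mimic conditions had standard errors of 0.66 to 1.31.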
